A study of Drosophila melanogaster with 27 samples.

Results

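The germline piRNA pathway genes aub, piwi, AGO3, vas, tud, spn-E, krimp, armi, zuc and squ were followed on arrays of whole adult females of Drosophila melanogaster with different gene doses. The members were taken by name, as the genes whose probe sets the array annotation gives to that gene alone. There were 10 such genes among 11982 genes with a symbol of their own, each with 1 probe set. Expressed here means a mean above 6 (log2) over the wild type arrays, and 8 of the 10 members met this limit.

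The study asked how aneuploidy, a changed copy number of a chromosome or of a segment, affects expression. The 27 arrays fell into 9 groups of 3 biological replicates, each with RNA of 10 whole females less than a day old. Flies heterozygous for a deficiency on the left arm of the second chromosome, Df(2L)J-H/+ or Df(2L)ED4651/+, or of the third, Df(3L)4470/+, had a parent from the Oregon R strain. The haplo 4th females had 1 copy of chromosome 4 and a parent that the study calls wild type. The Df(2L)J-H/+ haplo 4th females also had 1 copy and carried the deficiency as well. Females of the group Dp(2;2)Cam3/+ triplo 4th carried a duplication on the second chromosome and 3 copies of chromosome 4. The last 3 groups all had a parent from a stock with a compound of joined copies of chromosome 4, C(4)RM. The arrays labelled pof-mutant came from a y1 w67c23 stock homozygous for the D119 allele of Pof, the gene of a chromosome 4 binding protein. Those labelled pof-mutant triplo 4th had that stock as 1 parent, the other being flies that carried a Pof mutation over the CyO balancer together with the compound chromosome, and had 3 copies of chromosome 4. Wild type was the y1 w67c23 strain. Each genotype thus came from its own cross or stock, so genotype and strain background cannot be told apart.

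PIWI-interacting RNAs (piRNAs) are small RNAs that guide Argonaute proteins of the Piwi clade to transposon transcripts, mainly in the gonads. In the fly ovary, Piwi acts in the nucleus on transcription, and Aubergine and Argonaute 3 slice transcripts in the nuage, a perinuclear structure of the germline cells, where the cut products feed new piRNAs. Helicases, Tudor domain proteins and a mitochondrial nuclease make or load the piRNAs. The pathway's RNAs are loaded into the oocyte, and its mutants are typically female sterile. No probe set of a transposon was named in the annotation (0 of 18952 probe sets), so the targets of the pathway were not analysed here.

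Arrays of a group correlated at 0.936 or more in the 3 deficiency groups and both haplo 4th groups, at 0.839 to 0.95 in Dp(2;2)Cam3/+ triplo 4th and only at 0.624 to 0.9 for arrays labelled pof-mutant and 0.675 to 0.92 for pof-mutant triplo 4th arrays, against 0.955 to 0.98 in wild type. Pof itself had levels of 9.15, 11.01 and 8.95 on the arrays labelled pof-mutant, and of 7.0, 9.04 and 7.38 on those labelled pof-mutant triplo 4th, against 7.68, 7.44 and 7.92 in wild type. The 3 arrays labelled pof-mutant and 1 of those labelled pof-mutant triplo 4th thus lay above all wild type arrays, against their label, and the other 2 lay below them. Whether the probe set lies in the changed part of the gene was not tested, and these 6 arrays are named by their label throughout. Deposited values were on average 0.24 (log2) lower over expressed genes in Df(2L)J-H/+, 0.25 in Df(2L)ED4651/+, 0.255 in Df(3L)4470/+ and 0.143 for Df(2L)J-H/+ haplo 4th than in wild type, and at most 0.062 away from wild type in the other groups. As in the study, a constant was added to each array to remove this shift. Levels below are as deposited, and log2 ratios, tests, counts of overlap and the order of the groups are after centring.

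The order of the 9 groups was alike for most members, with tud as the exception. After centring, the mean of Df(2L)ED4651/+ was the lowest for 7 of the 8 expressed members, and that of the arrays labelled pof-mutant was the highest for 5. Aub and armi were highest in wild type, and tud was highest in Df(3L)4470/+. Neighbours in these orders mostly did not differ beyond their spread. Of 64 pairs of neighbours, 3 had arrays that did not overlap (4.69%), against 6.06% of such pairs over all 7394 expressed genes. These 3 were haplo 4th under wild type for aub and for krimp, and Df(2L)ED4651/+ under Df(2L)J-H/+ for AGO3.

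**Figure D1:**
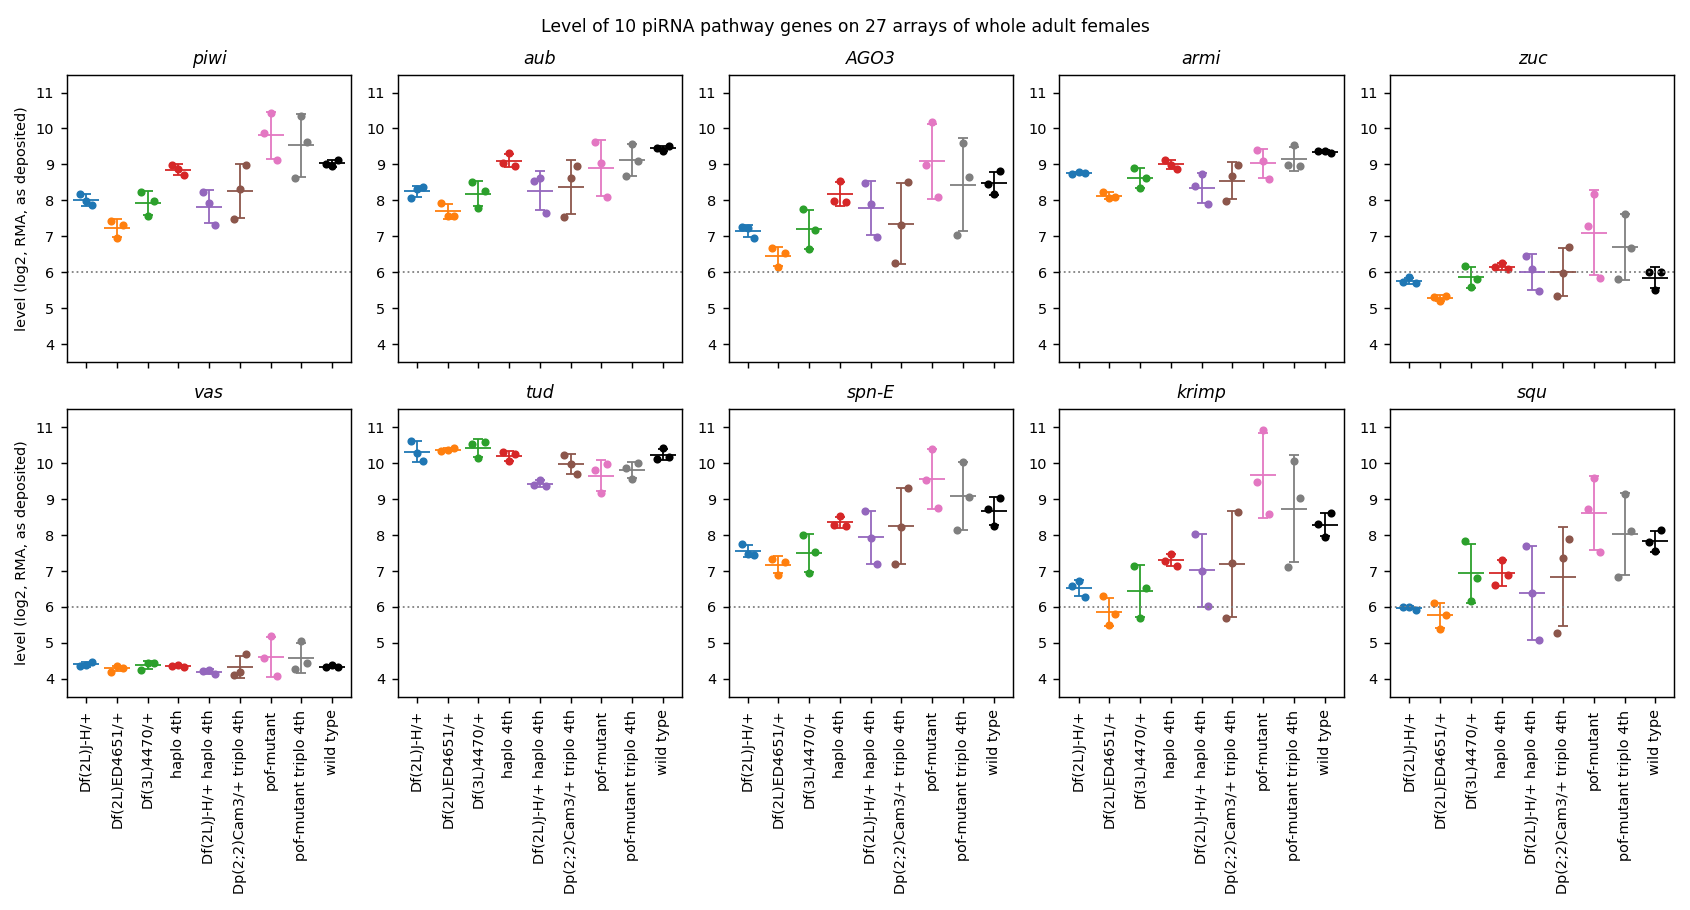
Level of each of the 10 genes on every array (points), with the group mean (dash) and SD (bars, n = 3), on the log2 scale as deposited; the dotted line is the limit of 6 for an expressed gene. Most genes are lowest in Df(2L)ED4651/+ and spread widely among the arrays labelled pof-mutant, tud is lowest for Df(2L)J-H/+ haplo 4th, and vas stays between 4.08 and 5.18.

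The 3 Piwi clade Argonautes come first. Aub, the cytoplasmic slicer loaded with antisense piRNAs, had levels of 8.06, 8.31 and 8.37 in Df(2L)J-H/+, 7.93, 7.58 and 7.57 in Df(2L)ED4651/+ and 8.50, 7.80 and 8.26 in Df(3L)4470/+. In flies with a changed dose of chromosome 4, aub stood at 9.05, 9.31 and 8.95 in haplo 4th, 8.53, 8.62 and 7.65 for Df(2L)J-H/+ haplo 4th and 7.54, 8.62 and 8.95 in Dp(2;2)Cam3/+ triplo 4th. The arrays labelled pof-mutant had 9.62, 9.03 and 8.08, those labelled pof-mutant triplo 4th 8.68, 9.57 and 9.11, and wild type 9.45, 9.38 and 9.5. All arrays of the 3 deficiency groups lay below all wild type arrays, while those labelled pof-mutant spanned them. In limma's moderated test, with p adjusted by Benjamini-Hochberg over 7394 expressed genes, aub fell by 0.96 ± 0.33 (log2, SE) in Df(2L)J-H/+ (adjusted p = 0.0497), fell by 1.50 ± 0.33 in Df(2L)ED4651/+ (adjusted p = 0.0038) and fell by 1.00 ± 0.33 in Df(3L)4470/+ (adjusted p = 0.045).

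Piwi, the nuclear member of the clade, ranged over 6.95 to 7.43 in Df(2L)ED4651/+ (mean 7.23 ± 0.25, SD, n = 3), against a mean of 9.03 ± 0.09 in wild type. It fell by 1.55 ± 0.35 in that group (limma adjusted p = 0.0048), to 0.34 times the wild type level. AGO3, the partner of Aub in the slicing cycle, averaged 6.44 ± 0.27 in Df(2L)ED4651/+ and 8.48 ± 0.32 in wild type and fell by 1.78 ± 0.56 (limma adjusted p = 0.029). Neither passed in another comparison, with log2 ratios against wild type of -1.07 to 0.77 for piwi and -1.09 to 0.60 for AGO3 over the other 7 groups.

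Among the genes of piRNA production, armi encodes an RNA helicase of primary biogenesis. It had levels of 8.73, 8.79 and 8.77 in Df(2L)J-H/+, 8.24, 8.06 and 8.10 in Df(2L)ED4651/+ and 8.90, 8.35 and 8.62 in Df(3L)4470/+. Armi stood at 9.13, 8.99 and 8.88 in haplo 4th, 8.41, 8.73 and 7.91 for Df(2L)J-H/+ haplo 4th and 7.97, 8.68 and 8.98 in Dp(2;2)Cam3/+ triplo 4th. The arrays labelled pof-mutant had 9.40, 9.10 and 8.59 and those labelled pof-mutant triplo 4th 8.98, 9.55 and 8.96, against 9.38, 9.37 and 9.32 in wild type. Only the arrays labelled pof-mutant or pof-mutant triplo 4th reached the wild type levels, which varied little between replicates (SD 0.04). It fell by 0.97 ± 0.22 in Df(2L)ED4651/+ (limma adjusted p = 0.0047) and fell by 0.86 ± 0.22 for Df(2L)J-H/+ haplo 4th (limma adjusted p = 0.018). Zuc, the nuclease that cuts primary piRNAs at the mitochondrial surface, had a wild type mean of 5.85 ± 0.29, under the limit of 6, and was tested only without that limit. Its log2 ratios against wild type lay between -0.31 and 1.25 and did not pass in any of the 8 comparisons (lowest limma adjusted p = 0.11, on the arrays labelled pof-mutant). There zuc had its widest spread, 5.84 to 8.17.

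The remaining members encode proteins of the nuage. Krimp, a Tudor domain protein that brings Aub and AGO3 together, had levels of 6.59, 6.71 and 6.29 in Df(2L)J-H/+, 6.29, 5.50 and 5.80 in Df(2L)ED4651/+ and 7.14, 5.70 and 6.52 in Df(3L)4470/+. It had 7.28, 7.48 and 7.14 in haplo 4th, 8.03, 7.0 and 6.01 for Df(2L)J-H/+ haplo 4th and 5.69, 7.22 and 8.64 in Dp(2;2)Cam3/+ triplo 4th. Krimp stood at 9.46, 10.93 and 8.58 on the arrays labelled pof-mutant and 7.12, 10.06 and 9.02 on those labelled pof-mutant triplo 4th, against 8.32, 7.96 and 8.60 in wild type. All deficiency and haplo 4th arrays thus lay below wild type, the duplication group and Df(2L)J-H/+ haplo 4th reached into its range, and the highest array was one labelled pof-mutant, followed by one labelled pof-mutant triplo 4th. Krimp fell by 2.18 ± 0.68 in Df(2L)ED4651/+ (limma adjusted p = 0.028), to 0.22 times the wild type level. Its log2 ratios of -1.52 in Df(2L)J-H/+, -1.58 in Df(3L)4470/+ and 1.36 on the arrays labelled pof-mutant did not pass (limma adjusted p = 0.12, 0.12 and 0.15).

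Squ, a small nuage protein, had 6.01, 6.0 and 5.92 in Df(2L)J-H/+, 6.10, 5.40 and 5.79 in Df(2L)ED4651/+ and 7.82, 6.18 and 6.80 in Df(3L)4470/+. It had 6.61, 7.31 and 6.89 in haplo 4th, 7.68, 6.40 and 5.08 for Df(2L)J-H/+ haplo 4th and 5.28, 7.35 and 7.90 in Dp(2;2)Cam3/+ triplo 4th. Squ stood at 8.73, 9.58 and 7.51 on the arrays labelled pof-mutant and 6.84, 9.14 and 8.10 on those labelled pof-mutant triplo 4th, against 7.82, 7.55 and 8.13 in wild type. The 3 arrays of Df(2L)J-H/+ were close together and well below wild type, whereas single arrays of Df(3L)4470/+, Df(2L)J-H/+ haplo 4th and the duplication group reached wild type levels. Squ fell by 1.82 ± 0.65 in Df(2L)ED4651/+ (limma adjusted p = 0.0489), a call that was lost with any 1 array of the 2 groups left out (limma adjusted p = 0.072 to 0.151), and had a log2 ratio of -1.61 ± 0.65 in Df(2L)J-H/+ that did not pass (limma adjusted p = 0.085). Spn-E, a helicase with a Tudor domain, averaged 7.17 ± 0.24 in Df(2L)ED4651/+ and 8.66 ± 0.40 in wild type. Its log2 ratio of -1.24 ± 0.47 there did not pass (limma adjusted p = 0.062), nor did those of the other 7 groups, which lay between -0.91 and 0.89.

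Vas, the germline helicase that marks the nuage, had levels of 4.08 to 5.18 over all 27 arrays, with a wild type mean of 4.34 ± 0.04. This probe set lay below the limit of 6 everywhere, the other probe set that names vas also names wwk and was left out, and vas was tested only without the limit. Its log2 ratios against wild type lay between 0.00 and 0.30, and its lowest limma adjusted p in these comparisons was 0.27. Over the 27 arrays its deposited level had r = 0.657 with the mean of the female germline genes described below. At this level a change in vas may go unseen, which was not tested.

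Tud, the founding Tudor domain protein, which binds methylated Aub and is needed to form germ plasm, went another way. Its array values are given because of this pattern, which was chosen after its values were seen. Tud had 10.63, 10.28 and 10.05 in Df(2L)J-H/+, 10.33, 10.38 and 10.41 in Df(2L)ED4651/+ and 10.52, 10.14 and 10.59 in Df(3L)4470/+. It had 10.32, 10.05 and 10.25 in haplo 4th, 9.40, 9.53 and 9.36 for Df(2L)J-H/+ haplo 4th and 10.24, 9.98 and 9.70 in Dp(2;2)Cam3/+ triplo 4th. Tud stood at 9.82, 9.17 and 9.98 on the arrays labelled pof-mutant and 9.87, 9.56 and 10.00 on those labelled pof-mutant triplo 4th, against 10.12, 10.41 and 10.16 in wild type. The 3 arrays of Df(2L)J-H/+ haplo 4th lay below every array of wild type, of haplo 4th and of Df(2L)J-H/+. Tud fell by 0.66 ± 0.19 in these flies against wild type (limma adjusted p = 0.033) and fell by 0.98 ± 0.19 against Df(2L)J-H/+ (limma adjusted p = 0.0042), and its log2 ratio of -0.68 ± 0.19 against haplo 4th did not pass (limma adjusted p = 0.15). The log2 ratio of tud between Df(2L)J-H/+ haplo 4th and haplo 4th, minus that between Df(2L)J-H/+ and wild type, was -1.003 ± 0.27. This did not pass either (limma adjusted p = 0.090, with 43 of 7394 genes passing). Df(2L)J-H/+ had an Oregon R parent and both haplo 4th groups a C(4)RM parent, so deficiency and cross cannot be told apart in this value. The log2 ratios of tud were 0.33 for Df(2L)J-H/+, 0.39 for Df(2L)ED4651/+ and 0.44 for Df(3L)4470/+, with limma adjusted p of 0.23, 0.14 and 0.12.

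**Figure D2:**
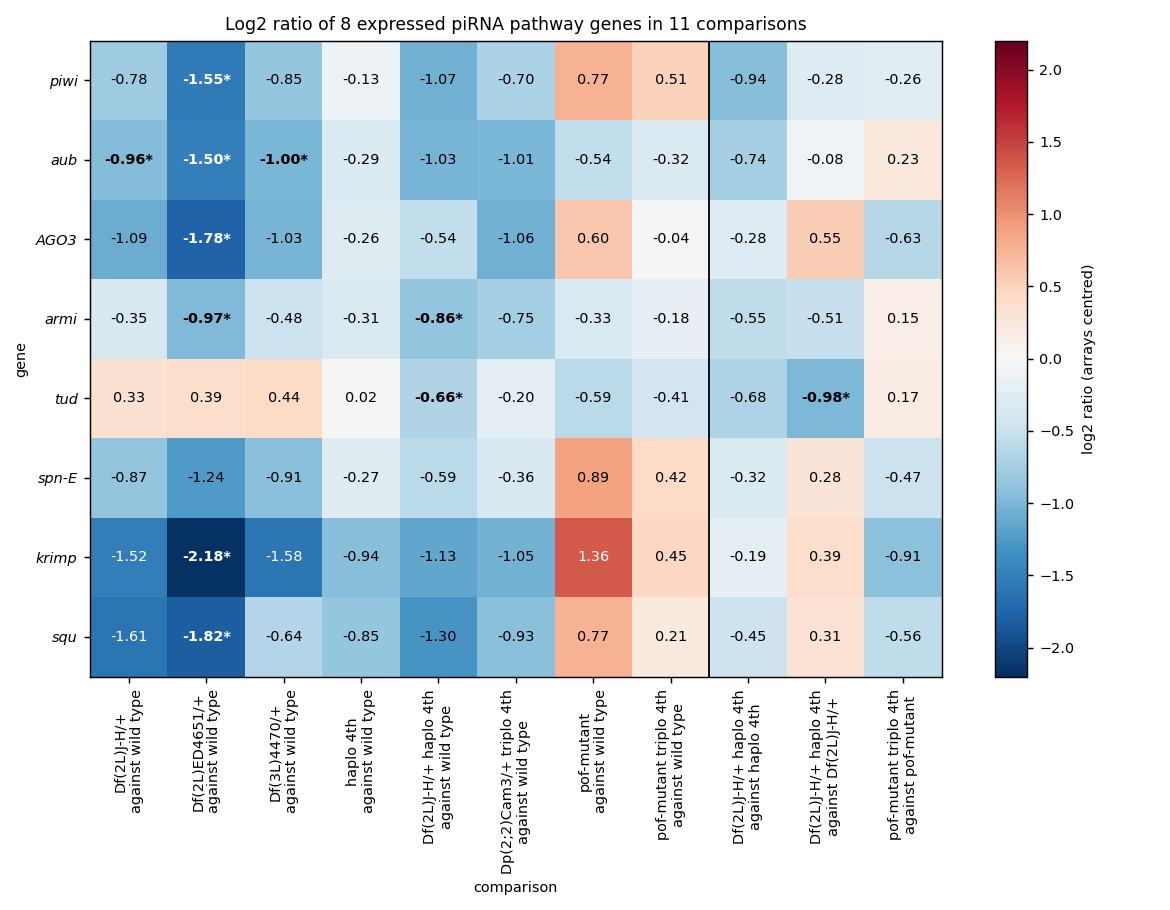
Log2 ratio of the 8 expressed genes (rows) in the 11 comparisons (columns), after centring of the arrays; an asterisk marks an adjusted p under 0.05 in limma, and the vertical line separates the 8 comparisons with wild type, which share its arrays. Of the 8 genes, 6 fell in Df(2L)ED4651/+, and tud, with ratios above 0 in the 3 deficiency groups, fell for Df(2L)J-H/+ haplo 4th.

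Counted over the 8 expressed members, 1 fell in Df(2L)J-H/+ (aub), where 6.82% of all expressed genes fell. In Df(2L)ED4651/+ 6 of 8 fell (aub, piwi, AGO3, krimp, armi and squ), where 8.86% of all genes fell, and in Df(3L)4470/+ 1 fell (aub), where 5.27% fell. The median log2 ratio of the members was -0.91, -1.53 and -0.88 in these 3 groups, against -0.01, 0.01 and -0.02 for all expressed genes. All 3 arrays lay below all 3 wild type arrays for 7, 7 and 6 members, against 31.6%, 33.5% and 28.9% of all genes. Tud lay wholly above wild type for Df(2L)ED4651/+ as well as Df(3L)4470/+, as did 34.1% and 29.1% of all genes. The 8 comparisons with wild type share its 3 arrays, so that these counts are not independent of each other.

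No expressed member passed in haplo 4th, where 3.84% of all genes changed in either direction. Their median log2 ratio was -0.28, and 4 of 8 lay wholly below wild type, against 25.7% of all genes. For Df(2L)J-H/+ haplo 4th 2 members fell (armi and tud), where 4.29% of all genes fell, the median was -0.95, and 4 lay wholly below wild type, against 22.0%. Aub and piwi had log2 ratios of -1.03 and -1.07 there that missed the threshold (limma adjusted p = 0.052 and 0.061). In Dp(2;2)Cam3/+ triplo 4th no member passed, where 3.3% of all genes changed. All 8 ratios were below 0 there (median -0.84), but only 2 members lay wholly below wild type, against 15.0% of all genes, since the 3 arrays of this group were far apart.

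On the arrays labelled pof-mutant no member passed in limma, where 3.77% of all genes changed. An unadjusted limma p under 0.05 was found for 2 members and for 2647 of 7394 genes. The log2 ratios of krimp, spn-E, piwi, squ and AGO3 were above 0 (0.60 to 1.36) and those of tud, aub and armi below 0 (-0.59 to -0.33). Of the 8 members, 1 lay wholly below wild type and 1 wholly above, against 8.74% and 12.6% of all genes. This result depended on 1 array, as did the count over all genes. Without replicate 3 labelled pof-mutant, 4 members passed (krimp, piwi, spn-E and tud), where 58.9% of all genes passed. On the arrays labelled pof-mutant triplo 4th no member passed, where 1.41% of all genes changed, the median was 0.08, and 1 member lay wholly below wild type, against 4.54%.

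The remaining comparisons do not use wild type. Between Df(2L)J-H/+ haplo 4th and haplo 4th no member passed, where 0.541% of all genes changed. All 8 ratios were below 0 (median -0.50), and 3 members lay wholly below haplo 4th, against 12.2% of all genes. Between Df(2L)J-H/+ haplo 4th and Df(2L)J-H/+ 1 member fell (tud), where 2.54% of all genes fell, the median was 0.10, and 2 members lay wholly below, against 20.2%. Between the arrays labelled pof-mutant triplo 4th and those labelled pof-mutant no member passed in limma, nor did any other gene (0.0%, with 423 of 7394 genes at an unadjusted p under 0.05).

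The spread that limma used was shared by all 9 groups, of which the duplication group and both groups labelled pof-mutant were the most variable. In fits on the 2 compared groups alone, 7 members passed for Df(2L)J-H/+, 8 for Df(2L)ED4651/+ and 7 for Df(3L)4470/+, where 51.2%, 58.7% and 43.8% of all genes passed. The aub calls of Df(2L)J-H/+ and of Df(3L)4470/+ were both lost when any 1 array of the 2 groups was left out. In these fits 0 members passed, where 6.99% to 11.3% and 6.26% to 14.6% of all genes passed. In Df(2L)ED4651/+ 3 to 5 members still passed, where 9.69% to 15.2% of all genes passed. Among these members were aub, piwi and armi in all 6 cases, AGO3 in 1, krimp in 2 and squ in 0. For Df(2L)J-H/+ haplo 4th females 0 or 1 passed against wild type, where 3.52% to 8.79% of all genes passed. The tud call was lost with any 1 array left out, and the armi call without replicate 3 or without any wild type array. In Dp(2;2)Cam3/+ triplo 4th armi passed once replicate 3 was left out, where 3.27% of all genes passed.

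No member lay in a segment with a changed copy number by its neighbours. The 10 expressed genes on each side of a member had median log2 ratios between -0.26 and 0.33 in the 8 comparisons with wild type. Piwi, aub, zuc, vas and squ are on chromosome arm 2L, krimp and tud on 2R, armi and AGO3 on 3L, and spn-E on 3R.

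The levels of the members went with those of other genes of the female germline. A list of such genes (nos, osk, bcd, grk, otu and others, 28 listed, 25 measured and 24 expressed) had array means of 8.23 to 8.48 in Df(2L)J-H/+, 7.88 to 8.45 in Df(2L)ED4651/+ and 8.15 to 9.13 in Df(3L)4470/+, against 9.60 to 9.98 in wild type. It ran over 8.71 to 9.17 in haplo 4th, 7.62 to 9.55 for Df(2L)J-H/+ haplo 4th and 7.73 to 9.87 in Dp(2;2)Cam3/+ triplo 4th. The highest means were among the arrays labelled pof-mutant (9.52 to 11.12) and pof-mutant triplo 4th (8.75 to 10.69). Of the 25 measured germline genes, 21 had a group mean above 6 for Df(2L)J-H/+ and 20 for Df(2L)ED4651/+, against 24 in wild type. In whole flies, fewer germline cells and less RNA per germline cell cannot be told apart.

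Over the 27 arrays the mean of the 7 expressed members other than tud correlated with the germline mean at r = 0.975 and rho = 0.975, and at 0.963 without the 2 arrays farthest from the median germline mean. Within groups, as deviations from the group means, r was 0.984. For tud the values were r = -0.621 and rho = -0.615, -0.457 without those 2 arrays, and -0.704 within groups. These are descriptions over arrays that share groups and scaling. Among these 7, single members had r between 0.683 (armi) and 0.977 (squ) with the germline mean. Krimp and spn-E were the most alike pair among the members (r = 0.983), and tud had r below 0 with each of the others.

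**Figure D3:**
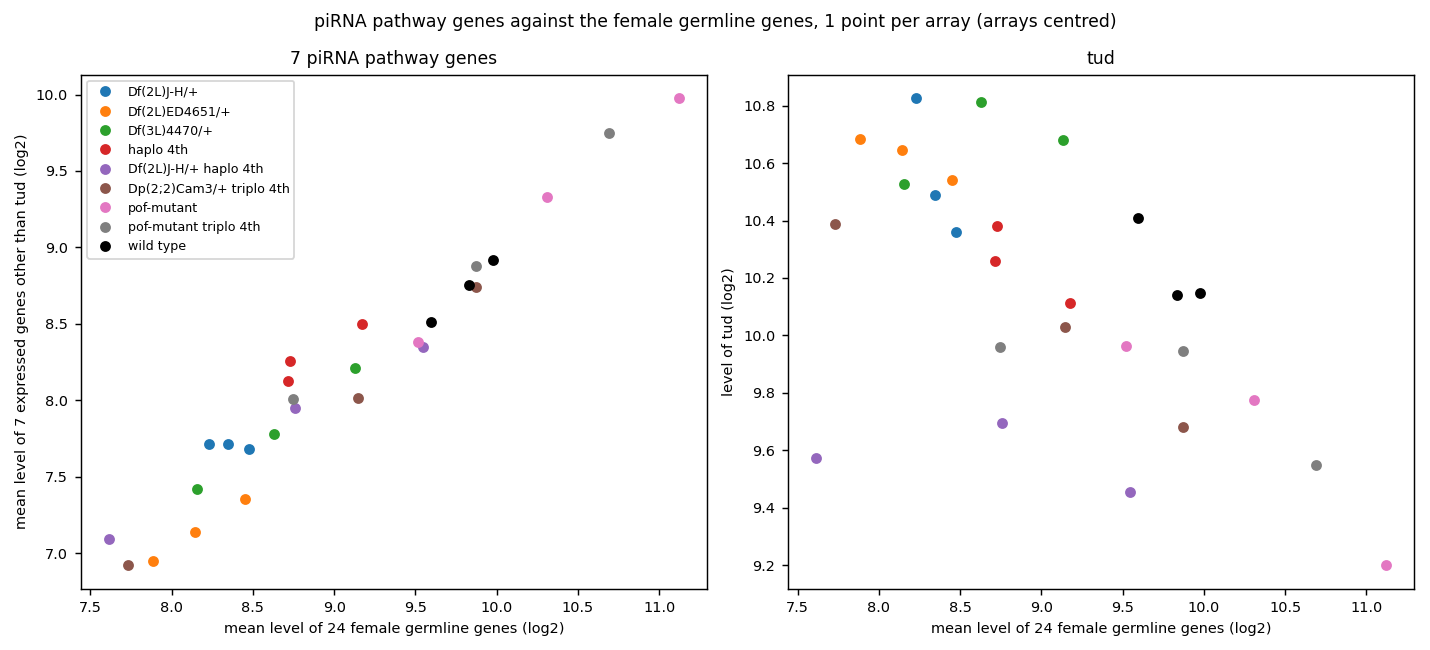
Mean level of the 7 expressed members other than tud (left) and level of tud (right) on each of the 27 arrays, against the mean level of 24 female germline genes on the same array, all log2 after centring, coloured by group. The 7 members lie close to one line over all groups (r = 0.975), while tud runs the other way (r = -0.621), with the 3 arrays of Df(2L)J-H/+ haplo 4th below the rest at similar germline levels.

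With the germline mean as a covariate in limma, the members called changed. In Df(2L)J-H/+ 0 remained and in Df(2L)ED4651/+ only piwi (-0.53, limma adjusted p = 0.040), while 5 members (aub, krimp, piwi, spn-E and tud) passed on the arrays labelled pof-mutant, where 14.7%, 14.5% and 14.5% of all genes passed. In Df(3L)4470/+, where 17.4% passed, the aub call was lost (-0.41, limma adjusted p = 0.20), and squ passed with a ratio of 0.78 (limma adjusted p = 0.00047). The sign turned for 31 of 88 ratios with this covariate, among them 7 of 8 for Df(2L)J-H/+, 2 for Df(2L)ED4651/+, 3 for Df(3L)4470/+ and 7 for haplo 4th. Tud passed with this covariate for Df(2L)J-H/+ haplo 4th females compared with wild type, with haplo 4th and with Df(2L)J-H/+. The covariate is itself an outcome measured on these arrays.

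The levels of other tissue lists stood as follows. Genes of follicle cells, eggshell and yolk (16 measured, all expressed in wild type) had array means of 6.42 to 6.94 in Df(2L)J-H/+, 6.83 to 7.61 in Df(2L)ED4651/+ and 6.90 to 8.30 in Df(3L)4470/+. They ran over 6.45 to 7.85 in haplo 4th, 6.52 to 9.01 for Df(2L)J-H/+ haplo 4th and 6.69 to 12.40 in Dp(2;2)Cam3/+ triplo 4th. The same list ran over 6.41 to 11.76 on the arrays labelled pof-mutant and 7.01 to 12.81 on those labelled pof-mutant triplo 4th, against 8.54 to 11.41 in wild type. Of the 16, 3 fell in Df(2L)J-H/+, namely the vitelline membrane genes Vm26Aa (-6.70) and Vm34Ca (-6.05) and the yolk protein gene Yp1 (-0.92), and 1 fell in Df(2L)ED4651/+, the eggshell gene dec (-5.17). None passed in the other comparisons. Muscle genes (7 measured) had array means of 9.92 to 12.78 on the arrays labelled pof-mutant and 11.38 to 12.82 on those labelled pof-mutant triplo 4th, and of 12.38 to 12.88 on all other arrays, and 0 of 7 passed in any of the 11 comparisons. Genes of the testis and male accessory gland had group means of 4.52 to 4.65, with 2 or 3 of 24 genes above 6 in each group. Only 2 of the list, bol and twe, were expressed in wild type. Bol rose in all 3 deficiency groups (1.23, 1.18 and 1.32) and for Df(2L)J-H/+ haplo 4th (0.94). In these 4 groups 812, 961, 718 and 414 of 7394 genes rose. Twe had ratios below 0 there (-1.99, -1.74, -1.54 and -1.11) that did not pass. Of 4 expressed genes of the nervous system, nSyb, a synaptic vesicle gene, rose with ratios of 1.24 for Df(2L)J-H/+ and 1.10 for Df(2L)ED4651/+. The medians of the 4 were 0.08 and 0.11 there, with lowest ratios of -0.13 and -0.09, and 812 and 961 of 7394 genes rose. The part of these tissues in the member levels was not tested.

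The rest of the piRNA pathway was described by a list of 31 genes, of which 28 were measured and 25 expressed. Of the 25, 3 fell for Df(2L)J-H/+, 7 for Df(2L)ED4651/+ and 2 for Df(3L)4470/+, where 6.82%, 8.86% and 5.27% of all genes fell, none rose, and the medians were -0.57, -0.65 and -0.42. No gene of the list passed in haplo 4th, on the arrays labelled pof-mutant or on those labelled pof-mutant triplo 4th (medians -0.23, 0.63 and 0.22). Of all genes, 3.84%, 3.77% and 1.41% changed there. In each of Df(2L)J-H/+ haplo 4th and Dp(2;2)Cam3/+ triplo 4th 1 fell (medians -0.56 and -0.38), where 317 and 95 of 7394 genes fell. Qin, a Tudor domain protein that keeps the slicing cycle between Aub and AGO3, was called in the most comparisons. It fell with log2 ratios of -1.41 for Df(2L)J-H/+, -1.65 for Df(2L)ED4651/+, -1.30 for Df(3L)4470/+, -1.49 for Df(2L)J-H/+ haplo 4th and -1.14 for Dp(2;2)Cam3/+ triplo 4th. Sov, a zinc finger protein of heterochromatin, fell with log2 ratios of -1.58, -1.95 and -1.94 in the 3 deficiency groups. Gasz, a scaffold on the mitochondrial surface, fell with ratios of -1.36 in Df(2L)J-H/+ and -1.29 in Df(2L)ED4651/+, and del, which acts with Rhino at piRNA clusters, fell by 1.93 in Df(2L)ED4651/+.

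The sister pathways of small interfering RNAs and microRNAs, which also work in somatic cells, had 7 measured genes of 10 listed, all expressed. AGO1, AGO2 and Dcr-1 had no probe set of their own, so no Argonaute gene was among the 7. Their medians against wild type were -0.32 in Df(2L)J-H/+, -0.38 for Df(2L)ED4651/+ and -0.31 for Df(3L)4470/+, with 2, 2 and 1 genes falling, where 6.82%, 8.86% and 5.27% of all genes fell. Drosha, the nuclear nuclease that cuts microRNA precursors, fell with ratios of -0.68, -0.76 and -0.67 in these groups, and Dcr-2, which cuts double-stranded RNA, with ratios of -0.32 in Df(2L)J-H/+ and -0.60 in Df(2L)ED4651/+. Gw, which silences microRNA targets and lies on chromosome 4, fell by 0.77 in haplo 4th and fell by 0.69 for Df(2L)J-H/+ haplo 4th against wild type. Ranbp21 passed in none of the comparisons.

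**Figure D4:**
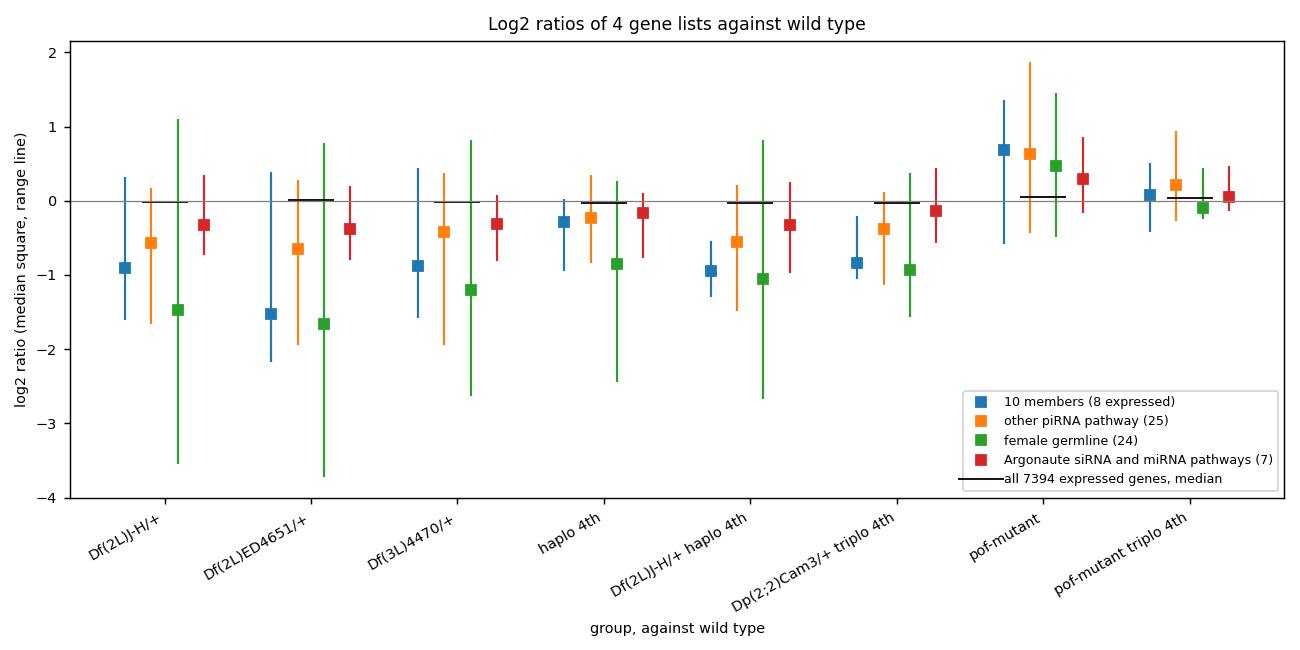
Median (square) and range (line) of the log2 ratios against wild type of the expressed genes in 4 lists, by group, with the median of all 7394 expressed genes as a black dash. In the 3 deficiency groups the median of the members is -0.91, -1.53 and -0.88 and that of the siRNA and miRNA genes -0.32, -0.38 and -0.31; among the arrays labelled pof-mutant all 4 medians are above 0.

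In the female germline list 8 of 24 genes fell for Df(2L)J-H/+, 13 for Df(2L)ED4651/+ and 4 for Df(3L)4470/+, where 6.82%, 8.86% and 5.27% of all genes fell, with medians of -1.48, -1.67 and -1.20, and 1 gene rose in each. That gene was stau, which localises oocyte messages and also works in neurons (1.10, 0.77 and 0.82). The thioredoxin gene dhd (-2.53, -2.73 and -1.99) and the yolk receptor gene yl (-1.86, -2.40 and -1.74) fell in all 3, as did fs(1)K10 (-1.01, -0.83 and -0.74), which acts in oocyte patterning.

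The genes outside the lists whose levels over 27 arrays were most like the mean of the expressed members were rpk, superdeath, icln, Pen, feo, Rassf, lds, Fs(2)Ket, CG1074 and Nup205. Their r ran over 0.967 to 0.978. Rpk encodes an ion channel subunit, and Pen, Fs(2)Ket and Nup205 encode proteins of nuclear import and the nuclear pore. Such likeness was common, since 499 of 7394 expressed genes (6.749%) had an r above 0.9.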

How the data were processed

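RNA of adult females was hybridised to Affymetrix Drosophila version 2 arrays. The authors deposited 1 log2 value per probe set and array, made by robust multi-array analysis (RMA), with 18952 probe sets and 0 missing values. Whether all arrays were normalised together, and the RMA version, are not given in the sources used here. In the array annotation 13647 probe sets had 1 symbol, 402 several and 4903 none, and 13550 of the first matched a gene table (Release 6 plus ISO1 MT, used for names and gene order). A gene took its probe set with the highest mean. The 7394 genes with a wild type mean above 6 were centred by a constant per array and tested with limma 3.58.1 (R 4.3.3; 1 mean per group over 27 arrays, two-sided, Benjamini-Hochberg adjusted p under 0.05). Replicates were labelled biological, and their number limits the precision.

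The members and gene lists were chosen with earlier results of these data known. By rule, all 10 members were named in each comparison, every array value was given for the 4 members called in the most comparisons with wild type, and 10 genes were named by likeness. Of each list the 4 genes called in the most comparisons were taken. In lists of other tissues only those called are named, apart from twe. Same-numbered replicates did not deviate together throughout any comparison (11 of 33 pairs with r above 0.1, r from -0.486 to 0.825), so numbers were not used as pairs. Single pairs did, with r of 0.825 for replicate 2 of the 2 groups labelled pof-mutant. For replicate 3 of Dp(2;2)Cam3/+ triplo 4th and wild type r was 0.661. Alternatives changed the centring, filter, probe set choice, moderation, weights, covariate, groups fitted and arrays.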

Additional observations from a re-analysis of the deposited data

How the results depend on the processing

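Counts of members passing out of 8 depended on the spread used. With array weights they were 8 in Df(2L)J-H/+, 8 in Df(3L)4470/+, 3 in haplo 4th and 8 for Df(2L)J-H/+ haplo 4th. Of all genes, 71.1%, 70.8%, 50.9% and 63.3% passed there. The counts were 6 in Dp(2;2)Cam3/+ triplo 4th, 5 on arrays labelled pof-mutant and 2 on those labelled pof-mutant triplo 4th, where 62%, 61.3% and 27.6% passed. In the 3 comparisons without wild type they were 2, 2 and 3, where 15.7%, 42.2% and 55.1% passed. With only the 2 compared groups they were 7 in Df(2L)J-H/+, 7 in Df(3L)4470/+, 2 in haplo 4th and 4 for Df(2L)J-H/+ haplo 4th, where 51.2%, 43.8%, 29.4% and 22.7% of all genes passed. Without the 9 arrays of both groups labelled pof-mutant and the duplication group, an alternative chosen after seeing the data, they were 7 in Df(2L)J-H/+, 7 in Df(3L)4470/+, 6 for Df(2L)J-H/+ haplo 4th, and 4 and 2 when the same flies were compared with haplo 4th and with Df(2L)J-H/+, where 54.6%, 51.0%, 42.4%, 6.22% and 23.8% of all genes passed. With the germline mean as covariate they were 0 in Df(2L)J-H/+, 1 in Df(2L)ED4651/+, 2 in haplo 4th, 5 on arrays labelled pof-mutant, 1 on those labelled pof-mutant triplo 4th, 2 when Df(2L)J-H/+ haplo 4th was compared with haplo 4th and 3 when compared with Df(2L)J-H/+, and squ in Df(2L)ED4651/+ reversed to 0.18. Without centring 3 passed in Df(3L)4470/+ and 4 for Df(2L)J-H/+ haplo 4th, where 21.6% and 10.8% of all genes passed. With centring on the median 1 passed in Dp(2;2)Cam3/+ triplo 4th, where 4.15% of all genes passed. Without centring the signs of tud in haplo 4th (-0.03) and of aub between Df(2L)J-H/+ haplo 4th and Df(2L)J-H/+ (0.02) changed as well. Under the alternatives other than no centring and the covariate, 31 of 1376 member ratios changed sign, none of them called before. With the replicate block 0 passed for Df(2L)J-H/+ and 0 for Df(3L)4470/+, where 16.3% and 14.1% of all genes passed. Squ lost its call in Df(2L)ED4651/+ with the replicate block (limma adjusted p = 0.059) and with trend and robust moderation (limma adjusted p = 0.05001). The cause was not tested. Leaving out 1 array gave 0 for Df(2L)J-H/+ and for Df(3L)4470/+, 3 to 5 in Df(2L)ED4651/+, 0 to 1 for Df(2L)J-H/+ haplo 4th and in Dp(2;2)Cam3/+ triplo 4th, and 0 to 4 on arrays labelled pof-mutant. In the same order, 6.99% to 11.3%, 6.26% to 14.6%, 9.69% to 15.2%, 3.52% to 8.79%, 1.54% to 3.27% and 1.66% to 58.9% of all genes passed. The 11 called ratios had 18 alternatives each, of whose 198 values 149 kept sign and call, 48 kept the sign but not the call and 1 reversed. The fall of tud between Df(2L)J-H/+ haplo 4th and Df(2L)J-H/+ passed under each alternative (-1.08 to -0.83).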
